A study of Mus musculus with 24 samples.

Results

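Expression was described for 10 genes of the hypoxia response and of glycolysis in mouse brain. The 10 genes, Egln3, Vegfa, Bnip3, Hk2, Pfkfb3, Aldoa, Pgk1, Pgam1, Ldha and Pdk1, were taken by gene symbol from the 19572 rows of the deposited expression table that carry 1 symbol, and each matched exactly 1 row. The samples were cerebral cortex, hippocampus and cerebellum of wildtype (WT) mice and of mice in which glutamine synthetase had been deleted in the liver (KO), with 4 arrays for each region and genotype and 24 arrays in all. Liver glutamine synthetase removes ammonia from blood, and the series title places the comparison in the setting of hyperammonemia. The labels number 4 animals per genotype, and each number appears once in every region, so 8 animals gave 3 regions each. Strain, age, sex, the Cre driver of the deletion and the nature of the WT controls (littermates or not) are not stated in the labels or the series record. Because the deletion is in the liver, these brain arrays do not check the genotype labels.

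When oxygen is plentiful, prolyl hydroxylases mark the HIF alpha subunits for destruction through the VHL protein. When it is scarce, HIF binds short DNA elements and raises genes for glycolysis, blood vessel growth and mitochondrial turnover, among them the gene of the hydroxylase Egln3 itself. In brain the glycolytic enzymes of this group are also expressed at normal oxygen, since neurons and glia both run on glucose and exchange lactate.

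The core of the HIF element, ACGTG or GCGTG on either strand (read as CACGT or CACGC on the opposite one), was searched for in RefSeq promoter windows of GRCm38.p6 that run from 250 bases before to 50 bases after each annotated start. It occurred in at least 1 window of all 10 genes, while 46.7% of the 27025 genes with a window have it. Some genes have several starts, and over single windows the core was in 13 of the 16 belonging to the 10 genes and in 43.8% of all 32851. Windows without it belonged to Aldoa, Vegfa and Pdk1, and the matches of Vegfa lay only in the window of a start inside the gene. The windows with matches of Ldha, Aldoa, Pfkfb3 and Pdk1 also belonged to starts inside the annotated span of the gene. A palindromic CACGTG counts as 2 matches. Ldha held 7 matches in 1 window, Bnip3 5 and Pfkfb3 4, whereas 8.93% of all windows hold 3 or more. Below are the 250 bases before the start of the 2 genes with the most matches, followed by Egln3, which had the largest KO difference in cortex, and Pdk1, which had the largest difference between regions. Capitals mark the core.
Ldha, chr7:46845554-46845803, plus strand: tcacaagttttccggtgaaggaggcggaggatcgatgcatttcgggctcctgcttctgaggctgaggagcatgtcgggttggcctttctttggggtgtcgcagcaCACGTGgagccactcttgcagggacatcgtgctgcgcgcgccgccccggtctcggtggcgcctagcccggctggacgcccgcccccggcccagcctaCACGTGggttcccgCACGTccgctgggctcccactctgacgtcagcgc
Bnip3, chr7:138909507-138909756, minus strand: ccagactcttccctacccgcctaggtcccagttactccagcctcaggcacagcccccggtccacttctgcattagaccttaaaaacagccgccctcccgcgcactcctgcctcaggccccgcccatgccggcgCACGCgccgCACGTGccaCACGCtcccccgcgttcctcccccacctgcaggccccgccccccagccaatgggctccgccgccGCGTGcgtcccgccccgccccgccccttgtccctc
Egln3, chr12:54203875-54204124, minus strand: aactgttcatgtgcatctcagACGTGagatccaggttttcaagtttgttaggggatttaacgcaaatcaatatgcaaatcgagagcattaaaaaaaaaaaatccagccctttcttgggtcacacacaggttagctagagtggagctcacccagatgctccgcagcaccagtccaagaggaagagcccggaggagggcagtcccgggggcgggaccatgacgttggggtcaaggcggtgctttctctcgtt
Pdk1, chr2:71872974-71873223, plus strand: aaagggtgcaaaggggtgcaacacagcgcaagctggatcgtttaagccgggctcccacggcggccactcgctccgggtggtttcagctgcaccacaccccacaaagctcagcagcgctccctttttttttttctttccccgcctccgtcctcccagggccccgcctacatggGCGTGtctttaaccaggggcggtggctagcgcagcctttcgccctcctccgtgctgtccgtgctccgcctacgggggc
In the printed stretches Ldha showed 5 of its 7 matches, Bnip3 all 5, Egln3 its single match and Pdk1 1 of its 2, the others ending past the start. These matches describe the letters in the windows and say nothing about binding in these samples.

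Values are the deposited values of each array, read as log2, on which a difference of 1 is a 2-fold difference in signal. On 291 rows they exceed 16, more than log2 of a scanner's usual 16-bit range, and whether they were rescaled after RMA is not stated, so a fold holds only if the values are unscaled log2. They run from 3.89 to 19.14, with array medians between 8.719 and 8.816. The mean of Hk2, 6.96, lies above 23.4% of all rows, and Aldoa was above 16 on all 24 arrays. These positions describe the probes, and no gene's amount was compared with that of another. Tests are moderated limma tests fitted on all 19572 rows, with Benjamini-Hochberg adjustment over all of them and a threshold of 0.05. Errors of groups are SDs over 4 animals, and errors of differences are standard errors (SE). In tissue RNA, a change in the number of cells of a type and a change in RNA per cell cannot be told apart.

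Defining genes followed the regional labels in WT animals: Gabra6, a GABA receptor subunit of cerebellar granule cells, averaged 16.56 in cerebellum against 5.27 in cortex and 5.16 in hippocampus, and the cortical transcription factor Tbr1 14.13 in cortex, 12.50 in hippocampus and 7.04 in cerebellum. Of hippocampal markers, Neurod6 averaged 13.46 in hippocampus and 11.90 in cortex, and Prox1 12.21 in hippocampus, 9.53 in cortex and 11.93 in cerebellum. On markers of neighbouring brain regions 3 arrays stood apart. On cortex KO 1 and KO 4 the mean of 12 olfactory bulb markers was 11.61 and 10.93, against 7.87 to 8.46 on the 6 other cortex arrays, and 11 of the 12 exceeded all of those. The 13 markers of brainstem and spinal cord averaged 9.32 on cerebellum KO 3, where the 7 other cerebellum arrays had 7.19 to 7.65. Of the 13, 8 lay above all of those arrays and 2 below all of them. The same array was the lowest for 8 of 8 cerebellar granule and Purkinje cell markers, with a mean of 14.45 against 15.61 to 16.23, and the highest for 8 of 8 oligodendrocyte markers, with a mean of 14.18 against 12.06 to 12.64. Choroid plexus markers (6 genes, Ttr among them) varied more widely: their mean was 10.38, 11.80, 8.25 and 10.05 on the cerebellum WT arrays, 8.21, 8.26, 11.50 and 8.21 on the KO arrays, 8.74 to 12.62 in hippocampus and 8.29 to 9.62 in cortex. The cortex oligodendrocyte mean was lowest on WT 3, at 11.46 against 11.88 to 12.91. For the 10 genes, values without the arrays concerned follow, mainly where they end a call, turn a sign or differ by over 1.5 times. List calls between WT cerebellum and the other regions are given with all arrays, except for a count of glycolytic enzymes against cortex.

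In WT mice, the cerebellum had lower signal than cortex for 4 of the 10 genes (Pdk1, Bnip3, Ldha and Aldoa) and higher signal for 1 (Vegfa). Between these regions 35.8% of all rows passed the test, 19.1% higher in cerebellum and 16.7% lower. Against hippocampus the cerebellum was lower for 6 (Pdk1, Aldoa, Ldha, Pgk1, Bnip3 and Pgam1) and again higher for Vegfa, where 34.9% of all rows passed, 17.6% higher and 17.3% lower. The median difference of the 10 genes was -0.44 against cortex and -0.43 against hippocampus, beside -0.02 and 0.03 over all rows. Between hippocampus and cortex none of the 10 passed, where 7.09% of all rows did, 4.07% higher in hippocampus and 3.01% lower. At an unadjusted p under 0.05 there were 0 of the 10, and the share of all rows at that p is not given here. The cerebellum and cortex arrays did not overlap for 7 of the 10 genes and 33.7% of all rows, and the cerebellum and hippocampus arrays for 8 of the 10 and 35.7%.

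**Figure D1:**
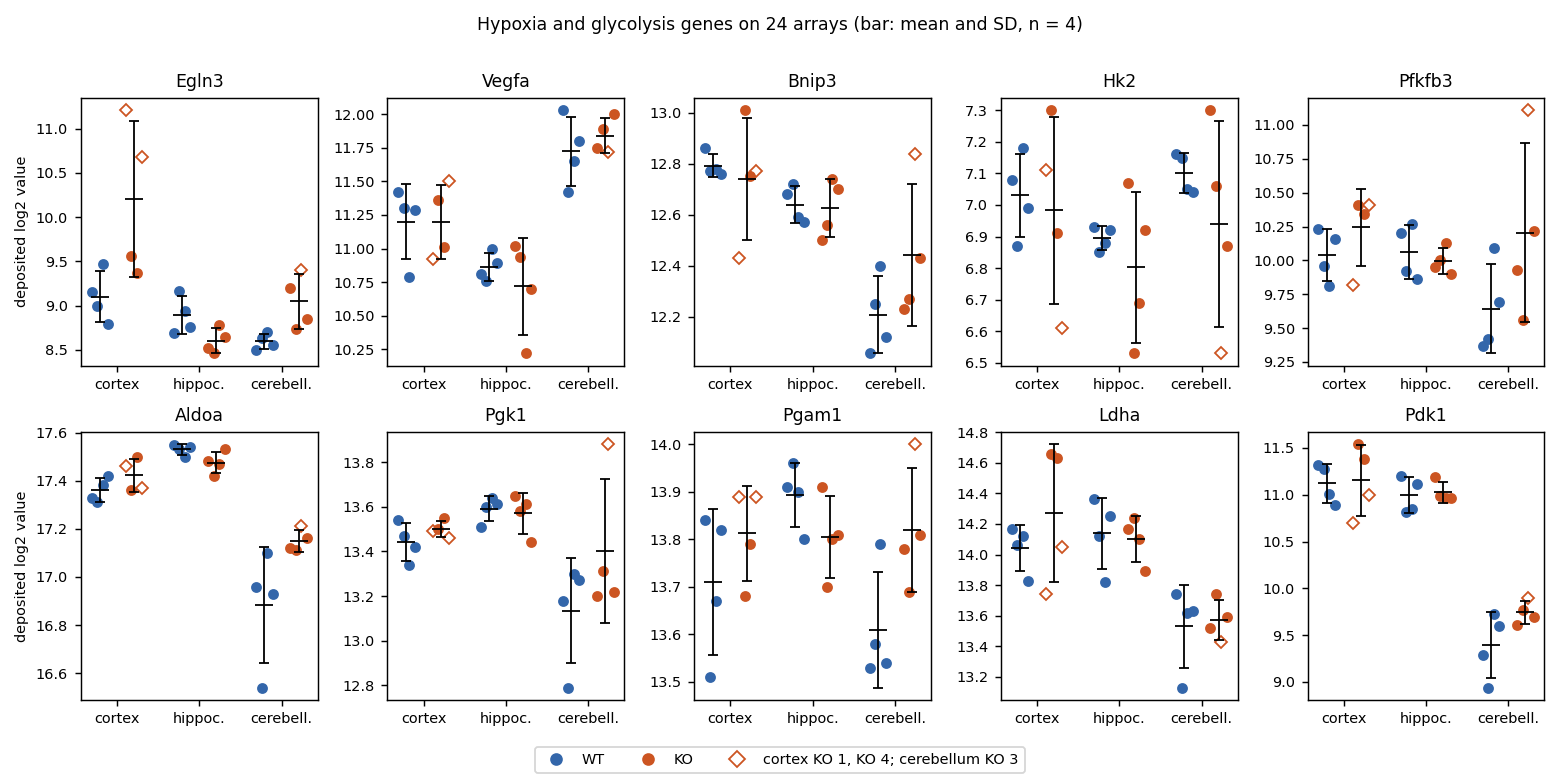
Deposited log2 value of each of the 10 genes on every array (vertical axes, each with its own range), by brain region, with WT in blue and KO in orange; horizontal bars are group means and vertical bars SDs of 4 animals. Open diamonds mark cortex KO 1 and KO 4 and cerebellum KO 3. Pdk1 lies near 11 in cortex and hippocampus and between 8.94 and 9.90 in cerebellum, while Vegfa is highest in cerebellum.

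Pdk1 encodes a kinase that inhibits pyruvate dehydrogenase and so turns pyruvate away from mitochondrial oxidation. Its WT values were 11.32, 11.27, 11.01 and 10.89 in cortex, 11.20, 10.82, 10.85 and 11.12 in hippocampus, and 9.29, 8.94, 9.73 and 9.60 in cerebellum. All cerebellum arrays lay below every cortex and hippocampus array. The cerebellar level was 0.300 times that of cortex (log2 difference -1.73, SE 0.17, limma adjusted p = 4.15e-09) and 0.328 times that of hippocampus (-1.61, SE 0.17, adjusted p = 1.6e-08). Cortex and hippocampus differed by -0.13 (SE 0.17, adjusted p = 0.715), with a 95% interval from -0.47 to 0.21.

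Vegfa, the main growth factor for endothelial cells, ran the other way. The WT cerebellum gave 12.03, 11.42, 11.65 and 11.80, the cortex 11.42, 11.30, 10.79 and 11.29, and the hippocampus 10.81, 10.76, 11.00 and 10.89. Cerebellum was thus the highest region and hippocampus, by its mean, the lowest, with the lowest cerebellum array level with the highest cortex array at 2 decimals. Cerebellar Vegfa was 1.81 times the hippocampal level (0.86, SE 0.17, adjusted p = 0.000164) and 1.44 times the cortical level (0.53, SE 0.17, adjusted p = 0.0134). The second call rested on single arrays: without cortex WT 3 the adjusted p was 0.0769 and without cerebellum WT 1 it was 0.0672. Hippocampus against cortex gave -0.33 (SE 0.17, adjusted p = 0.255).

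Aldoa, the aldolase that splits fructose bisphosphate, had WT values of 17.33, 17.31, 17.38 and 17.42 in cortex and 17.55, 17.53, 17.50 and 17.54 in hippocampus. In cerebellum they were 16.96, 16.54, 17.10 and 16.93, all below the other regions. The differences were -0.48 from cortex (SE 0.10, adjusted p = 0.000233) and -0.65 from hippocampus (SE 0.10, adjusted p = 5.03e-06). The hippocampus arrays also all lay above the cortex arrays, by 0.17 on average, without passing the test (adjusted p = 0.323).

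Ldha, the lactate dehydrogenase subunit that favours lactate formation, averaged 14.04 ± 0.15 (SD, n = 4) in WT cortex, 14.14 ± 0.23 in hippocampus and 13.53 ± 0.27 in cerebellum. Its highest cerebellum array, 13.74, was under the lowest of the other regions, 13.82. The differences of cerebellum were -0.51 from cortex (SE 0.17, adjusted p = 0.0179) and -0.61 from hippocampus (SE 0.17, adjusted p = 0.00551). The call against cortex was lost without cortex WT 1 (adjusted p = 0.0538) and without cerebellum WT 2 (adjusted p = 0.0914), the array with the lowest value, 13.13.

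Bnip3, an outer mitochondrial membrane protein that recruits mitochondria to autophagy, averaged 12.79 ± 0.04 in WT cortex, 12.64 ± 0.07 in hippocampus and 12.21 ± 0.15 in cerebellum. The regions were in this order without overlap, the cortex arrays spanning 12.76 to 12.86, hippocampus 12.57 to 12.72 and cerebellum 12.06 to 12.40. Cerebellum differed from cortex by -0.58 (SE 0.12, adjusted p = 0.000472) and from hippocampus by -0.43 (SE 0.12, adjusted p = 0.00727), while hippocampus against cortex did not pass the test (-0.15, adjusted p = 0.539).

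Pgk1 and Pgam1 carry out successive steps of lower glycolysis, phosphoglycerate kinase and phosphoglycerate mutase. Pgk1 averaged 13.44 ± 0.09 in WT cortex, 13.59 ± 0.05 in hippocampus and 13.13 ± 0.23 in cerebellum, the last lower than hippocampus by test (-0.46, SE 0.13, adjusted p = 0.00498) and short of the threshold against cortex (-0.31, adjusted p = 0.0557). Pgk1 passed against cortex under quantile normalization (-0.30, adjusted p = 0.0366), without dim rows (adjusted p = 0.0427) and with robust empirical Bayes (adjusted p = 0.0499). Pgam1 averaged 13.71 ± 0.15, 13.89 ± 0.06 and 13.61 ± 0.12 in the same order. Its difference of cerebellum from hippocampus, -0.28 (SE 0.10, adjusted p = 0.0237), was the smallest called among the 10, and it was lost without any 1 of hippocampus WT 1, hippocampus WT 2, cerebellum WT 1 or cerebellum WT 4 (adjusted p from 0.0516 to 0.0716).

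The other 3 genes passed no regional test in WT mice with all arrays. Pfkfb3, whose enzyme makes fructose 2,6-bisphosphate, the main activator of phosphofructokinase, averaged 10.04 ± 0.19 in cortex, 10.06 ± 0.20 in hippocampus and 9.64 ± 0.33 in cerebellum. Egln3, the oxygen-dependent prolyl hydroxylase, averaged 9.10 ± 0.28, 8.89 ± 0.21 and 8.60 ± 0.09. Hk2, an inducible hexokinase that sits on mitochondria, averaged 7.03 ± 0.13, 6.90 ± 0.04 and 7.10 ± 0.06, with every cerebellum array above every hippocampus array. The 3 KO arrays that stood apart enter these WT tests through the shared estimate of spread. Without them 8 of the 10 genes were called between WT cerebellum and cortex. Pfkfb3 (-0.40, adjusted p = 0.036), Egln3 (-0.51, adjusted p = 0.00353) and Pgk1 (-0.31, adjusted p = 0.0176) were added. Pfkfb3 was also called against hippocampus (-0.42, adjusted p = 0.0274). The spread of every row changes in this setting: between WT hippocampus and cortex, called rows went from 1387 to 2097. The share of all rows called between WT cerebellum and cortex in this setting is not given here. The added calls are therefore not read as particular to these genes. Choroid plexus markers were high on 3 of the 4 WT cerebellum arrays. Without these and cerebellum KO 3, a choice made after seeing the data, WT 3 stands alone and is assumed to vary like the other groups. The difference from cortex was then -1.40 for Pdk1, -0.40 for Bnip3, -0.43 for Ldha, -0.26 for Aldoa and 0.45 for Vegfa. From hippocampus Pdk1 stood at -1.27, Ldha at -0.53, Aldoa at -0.43, Pgk1 at -0.30, Bnip3 at -0.25, Pgam1 at -0.10 and Vegfa at 0.78. With 1 WT cerebellum array left, no call is read from this setting.

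In KO mice 1 of the 10 genes was called between hippocampus and cortex (Egln3), where 6.86% of all rows passed, 3.79% higher and 3.07% lower. Cerebellum against cortex gave 5 calls (Vegfa higher, with 18.0% of all rows called higher and 14.2% lower; Pdk1, Egln3, Ldha and Aldoa lower), where 32.1% passed in all. Cerebellum against hippocampus gave 4, with Vegfa higher and Pdk1, Ldha and Aldoa lower. Of all rows 31.3% passed, 16.7% higher and 14.6% lower. Without cerebellum KO 3 there were 6 calls, with Pgk1 (adjusted p = 0.0181) and Bnip3 (adjusted p = 0.0375) added. With single arrays left out, 5319 to 6565 of all rows were called in this comparison, against 6129 with all arrays. The KO groups did not overlap for 1 gene between hippocampus and cortex (11.8% of all rows), 3 genes between cerebellum and cortex (26.9%) and 4 between cerebellum and hippocampus (27.6%). Whether a regional difference itself differed between genotypes is the test of the KO effect between regions given further on, which called none of the 10.

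In KO mice Pdk1 read 10.70, 11.54, 11.38 and 11.00 in cortex, 11.19, 10.99, 10.96 and 10.96 in hippocampus, and 9.61, 9.77, 9.90 and 9.69 in cerebellum. It was lower in cerebellum by test, at -1.41 from cortex (SE 0.17, adjusted p = 1.93e-07) and -1.28 from hippocampus (SE 0.17, adjusted p = 8.6e-07). Vegfa was higher in the KO cerebellum by 0.64 than in cortex (adjusted p = 0.00354) and by 1.12 than in hippocampus (SE 0.17, adjusted p = 6.49e-06). Ldha was lower in cerebellum, at -0.70 from cortex (adjusted p = 0.00204) and -0.53 from hippocampus (adjusted p = 0.0165). Without cortex KO 1 and KO 4 the Ldha difference from cortex was -1.07 (adjusted p = 1.44e-05).

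Aldoa in the KO cerebellum differed by -0.28 from cortex (adjusted p = 0.0268) and by -0.32 from hippocampus (adjusted p = 0.0101). The first call was lost without cortex KO 1, cortex KO 3, cerebellum KO 1, cerebellum KO 2 or cerebellum KO 4 (adjusted p from 0.0503 to 0.0791) and without cortex KO 1 and KO 4 together (adjusted p = 0.0824). Bnip3 in the KO cerebellum was -0.30 from cortex (adjusted p = 0.0729), and it passed the test without cortex KO 1 (adjusted p = 0.0161) or without cerebellum KO 3 (adjusted p = 0.00513).

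Egln3 differed between hippocampus and cortex of KO mice by -1.60 (SE 0.26, adjusted p = 0.000159), with every hippocampus array below every cortex array, and it was also lower in cerebellum than in cortex, at -1.15 (SE 0.26, adjusted p = 0.000969). Without the 2 cortex arrays with high olfactory bulb markers, KO 1 and KO 4, the difference of hippocampus from cortex was -0.86 (adjusted p = 0.00393), and that of cerebellum from cortex was -0.41 (adjusted p = 0.0923). Cerebellum exceeded hippocampus by 0.45, with a limma adjusted p of 0.211 on all arrays and 0.0209 without those 2. The difference itself stayed at 0.45, since the 2 cortex arrays enter this comparison only through the shared estimate of spread.

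**Figure D2:**
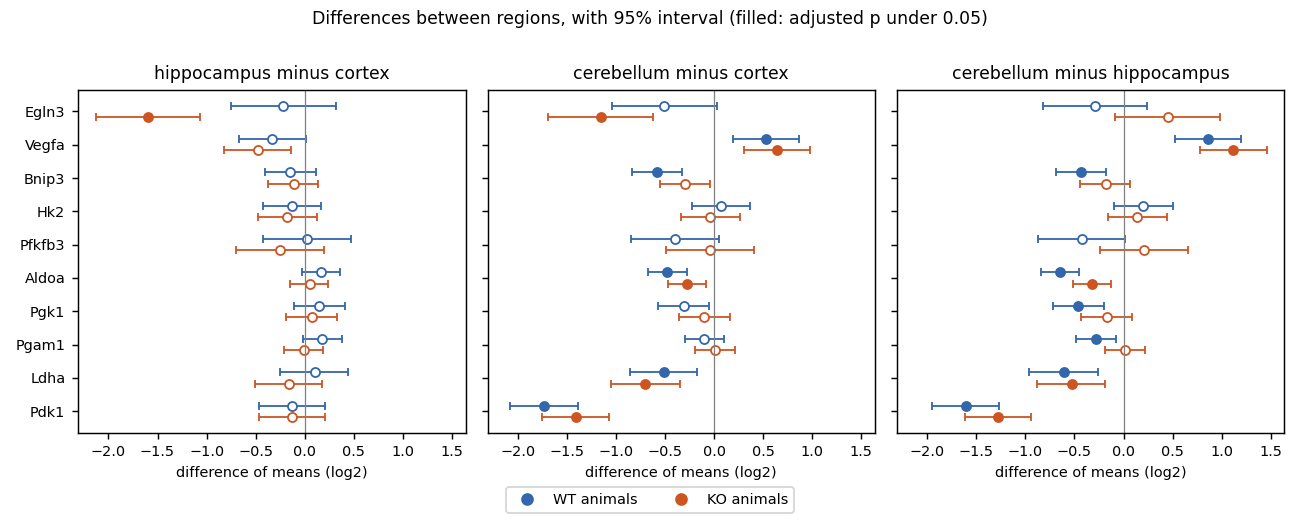
Difference of group means (log2, horizontal axis) between regions for the 10 genes, in WT mice (blue) and KO mice (orange), with bars for the 95% interval of the limma fit; filled points had an adjusted p under 0.05. Cerebellum lies left of 0 for Pdk1 by -1.73 (WT) and -1.41 (KO) against cortex, and right of 0 for Vegfa by 0.53 and 0.64.

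The central question of the design was whether brain expression differed between KO and WT mice. None of the 10 genes passed the test in cortex, hippocampus or cerebellum, and neither did any other row, so the share called was 0.0% in each region. At an unadjusted p under 0.05 there were 1 of the 10 in cortex (7.45% of all rows), 0 in hippocampus (2.11%) and 5 in cerebellum (9.5%).

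Egln3 showed the largest KO difference of the 10 in cortex. KO values were 11.21, 9.56, 9.37 and 10.68, and WT values 9.15, 9.0, 9.47 and 8.79. Cortex KO 1 and KO 4 were the high arrays, KO 2 was just above the highest WT array and KO 3 was within the WT range. The KO mean was 2.14 times the WT mean (1.10, SE 0.26, 95% interval 0.57 to 1.63, adjusted p = 0.366). By unadjusted p (0.000268) it was the row of rank 7 among 19572.

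The Egln3 value moved with the arrays used. Without cortex KO 1 and KO 4 it was 0.36 (adjusted p = 0.999). Without cortex KO 2 it was 1.32 (adjusted p = 0.0374, 55 rows called in all) and without cortex KO 3 it was 1.38 (adjusted p = 0.0247, 34 rows called). The 2 arrays with the highest Egln3 were the 2 with olfactory bulb marker means of 10.93 or more, and the part of those markers in the Egln3 difference was not tested.

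Egln3 in the other regions gave smaller differences, lower in the KO hippocampus and higher in the KO cerebellum. Hippocampus KO values were 8.52, 8.46, 8.78 and 8.65 against 8.69, 9.17, 8.94 and 8.76 in WT, a difference of -0.29 (SE 0.26, 95% interval -0.82 to 0.25) with 3 KO arrays below all WT arrays. Cerebellum KO values were 9.20, 8.74, 9.40 and 8.85 against 8.50, 8.63, 8.70 and 8.56, a difference of 0.45 (SE 0.26, adjusted p = 0.578). Every cerebellum KO array lay above every WT array, and without cerebellum KO 3, the highest, the difference was 0.33 (adjusted p = 0.999).

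**Figure D3:**
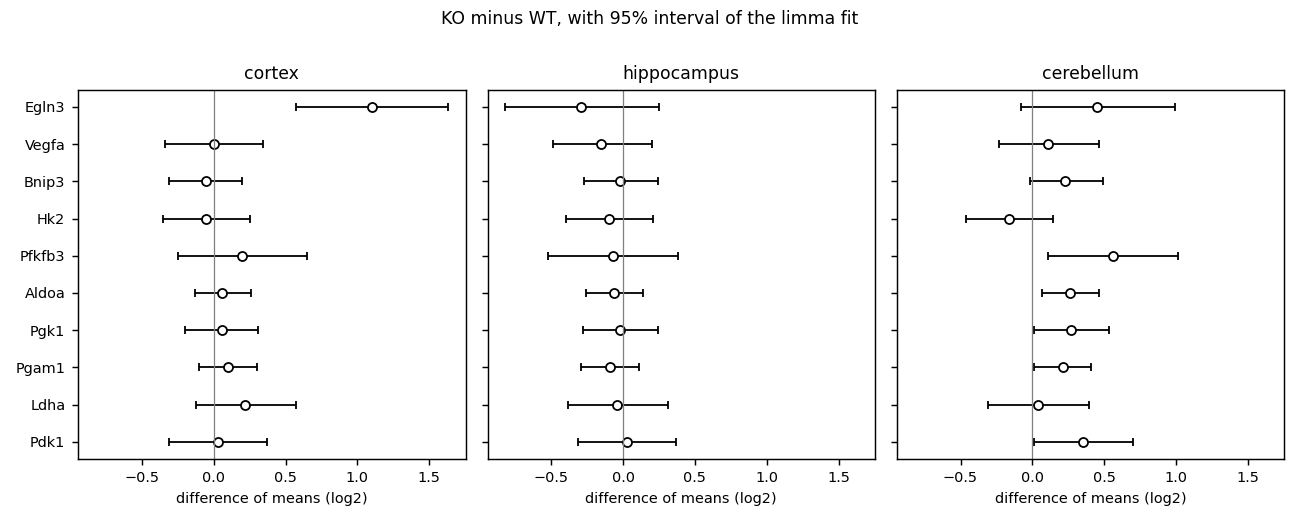
KO minus WT difference of group means (log2, horizontal axis) of the 10 genes in each region, with bars for the 95% interval of the limma fit on 24 arrays; no point had an adjusted p under 0.05. Egln3 in cortex stands at 1.10, hippocampus has 9 of 10 genes left of 0, and cerebellum has 9 of 10 right of 0.

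In cerebellum 9 of the 10 genes had a higher mean in KO, Hk2 being the exception (-0.16), with a median difference of 0.25 beside 0.00 over all rows. Pfkfb3 had the largest value: 9.93, 9.56, 11.11 and 10.22 in KO against 9.37, 9.42, 10.09 and 9.69 in WT. Only cerebellum KO 3 and KO 4 exceeded all WT arrays, and the difference was 0.56 (SE 0.22, 95% interval 0.11 to 1.01, adjusted p = 0.444). Without cerebellum KO 3 it was 0.26 (adjusted p = 0.999).

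Aldoa in cerebellum was 17.12, 17.11, 17.21 and 17.16 in KO, all above the WT values of 16.54 to 17.10, with a difference of 0.26 (SE 0.10, adjusted p = 0.435). Aldoa and Egln3 were the 2 of 10 genes whose cerebellum groups did not overlap, as was so for 3.5% of all rows. In cortex and hippocampus none of the 10 separated, beside 3.68% and 2.17% of rows. The Aldoa difference was 0.24 without cerebellum KO 3.

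Pdk1 in cerebellum was 0.35 higher on average (SE 0.17, adjusted p = 0.516), and 0.30 without cerebellum KO 3. Pgk1 was 0.27 higher (SE 0.13, adjusted p = 0.517), Pgam1 0.21 (SE 0.10, adjusted p = 0.509) and Bnip3 0.23 (SE 0.12, adjusted p = 0.554). Their differences were 0.11, 0.15 and 0.10 without cerebellum KO 3, on which Pgk1 read 13.88 while the other KO arrays read 13.20 to 13.31. Vegfa differed by 0.11 and Ldha by 0.04.

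Cerebellum KO 3 was the highest of the 8 cerebellum arrays for 7 of the 10 genes and the lowest for Hk2. Cerebellum WT 2 was the lowest for 5 and WT 1 for 4, and these carried choroid plexus means of 11.80 and 10.38. WT 2 also had the lowest neuron marker mean, 13.87. Without cerebellum KO 3 the median difference of the 10 genes was 0.15, still with 9 of 10 higher, and 1 had an unadjusted p under 0.05. The share of all rows at that p without KO 3 is not given here. Without the 4 cerebellum arrays with high choroid plexus markers (WT 1, WT 2, WT 4 and KO 3) the median was -0.02, with 4 of 10 higher. Egln3 then stood at 0.23, Aldoa at 0.02 and Pfkfb3 at -0.18, WT 3 being the single WT array left. WT 3 had the highest WT cerebellum value of Pfkfb3, Aldoa, Pgam1, Egln3, Pdk1, Pgk1 and Bnip3, though not of Hk2, Ldha and Vegfa. A part of the choroid plexus markers in this shift cannot be told apart from the choice of arrays. On KO 3 the neuron marker mean was 15.23 against 13.87 to 14.49 on the other arrays (5 of 9 markers above all of them, 1 below all). The pericyte mean was 10.84 against 10.19 to 10.43 (4 of 6 above) and the neocortex mean 10.18 against 8.8 to 9.16 (3 of 7 above). The microglial marker mean was 9.55 against 8.48 to 8.76 on the other arrays (7 of 8 above). The astrocyte mean was 13.08 against 12.57 to 12.80 (5 of 9 above, 1 below all) and the endothelial mean 10.48 against 9.88 to 10.16 (4 of 8 above). The astrocyte mean was higher on every KO array (12.78 to 13.08) than on every WT array (12.57 to 12.74). The part of these cell types, and of the choroid plexus, brainstem and oligodendrocyte markers, in the cerebellar differences was not tested.

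**Figure D4:**
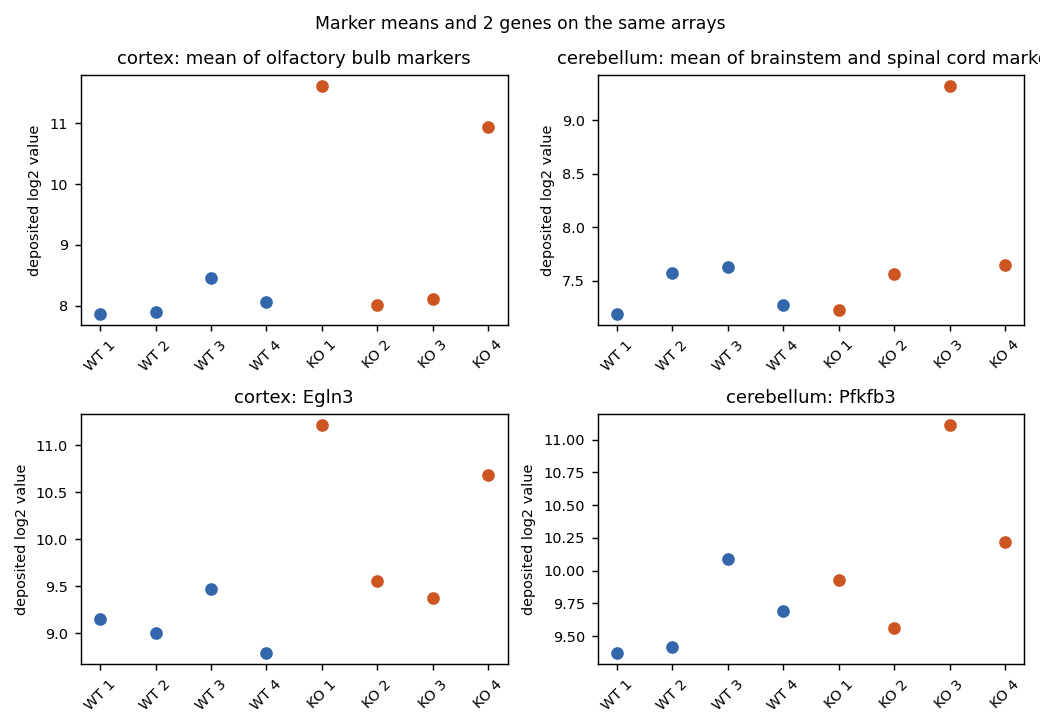
Mean of the marker list (upper panels) and one gene (lower panels) on the 8 arrays of a region, in deposited log2 values, with WT in blue and KO in orange. Left, cortex: olfactory bulb markers and Egln3 are both highest on KO 1 and KO 4. Right, cerebellum: brainstem and spinal cord markers and Pfkfb3 are both highest on KO 3, at 9.32 and 11.11.

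In cortex the 9 genes other than Egln3 differed by -0.05 to 0.22. Ldha was 13.74, 14.66, 14.63 and 14.05 in KO against 14.17, 14.06, 14.12 and 13.83 in WT, so that KO 2 and KO 3 were above and KO 1 below all WT arrays (0.22, SE 0.17, adjusted p = 0.824). Without cortex KO 1 and KO 4 the Ldha difference was 0.60, and those of Pdk1 and Pfkfb3 were 0.33 each, against 0.03 and 0.20 with all arrays (adjusted p = 0.999 for each of the 3 values without them). Pfkfb3 on cortex KO 1 read 9.82 and on the other 3 KO arrays 10.34 to 10.41. Vegfa differed by 0.00, Hk2 and Bnip3 by -0.05, Aldoa and Pgk1 by 0.06 and Pgam1 by 0.10. The median of the 10 genes was 0.06 with all arrays and 0.08 without these 2.

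In hippocampus 9 of the 10 genes had a lower mean in KO, with a median of -0.06 beside 0.01 over all rows, and every adjusted p was 1. Vegfa stood at 11.02, 10.94, 10.22 and 10.70 in KO and 10.81 to 11.00 in WT, a difference of -0.15 in which KO 3 was the low array. Pdk1, at 0.03, was the exception in sign. The 7 other genes lay between -0.10 (Hk2) and -0.02 (Bnip3 and Pgk1).

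Averaged over the 3 regions, with the animal as a random block, 0.0% of rows and none of the 10 genes passed, and 7.41% of rows and 1 of the 10 (Egln3) had an unadjusted p under 0.05. Egln3 gave 0.42 (SE 0.15, adjusted p = 0.661) and Pfkfb3 0.23 (SE 0.13, adjusted p = 0.695), and the other 8 lay between -0.10 (Hk2) and 0.14 (Pdk1). Without cortex KO 1 and KO 4 the Egln3 average was 0.18 (adjusted p = 0.867), Ldha 0.20 and Pdk1 0.24, and without cerebellum KO 3 the Pfkfb3 average was 0.13 (adjusted p = 0.846). The moderated F test of whether the KO effect differed between regions called 0.0% of rows, with 5.09% at an unadjusted p under 0.05. Egln3 had the smallest p of the 10 (limma adjusted p = 0.921, rank 26 of 19572 by p).

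The genes that surround these steps were counted in 6 lists: 14 further glycolytic enzymes, 10 isoforms and regulators of phosphofructokinase and pyruvate dehydrogenase, 7 transporters of glucose, lactate and pyruvate, 9 genes of oxygen sensing, 26 other hypoxia-induced genes and 8 VEGF ligands and receptors. No gene of any list was called between KO and WT in any region by limma. At an unadjusted p under 0.05 there were, in cerebellum, 2 glycolytic enzymes, 2 regulators, 2 transporters, 2 oxygen sensing genes, 3 hypoxia-induced genes and 2 VEGF genes. In cortex there were 4 glycolytic enzymes, 1 regulator, 1 hypoxia-induced gene and 2 VEGF genes, and in hippocampus 1 hypoxia-induced gene. Over all rows these shares were 9.5%, 7.45% and 2.11%. Without cerebellum KO 3 the cerebellum held 1 regulator, 1 transporter and 2 hypoxia-induced genes at that p. Without cortex KO 1 and KO 4 the cortex held 1 glycolytic enzyme and 2 hypoxia-induced genes. The shares over all rows without those arrays are not given here, so these changes in count are not read as particular to the lists. In cerebellum 12 of 14 glycolytic enzymes had a higher mean in KO (median 0.19), and in hippocampus 12 of 14 had a lower one (median -0.08), beside 0.00 and 0.01 over all rows. Without cerebellum KO 3 the count in cerebellum was 13 of 14 (median 0.10), and without the 4 arrays high in choroid plexus markers 5 of 14 (median -0.02). The 26 hypoxia-induced genes were divided in cerebellum, 12 higher and 14 lower (median -0.01). Among them Higd1a, a mitochondrial protein, stood at 0.46 and Car9, a carbonic anhydrase, at -0.54 (limma adjusted p = 0.435 for each), and at 0.35 and -0.37 without cerebellum KO 3. In cortex the smallest p of the glycolytic list belonged to the neuronal enolase Eno2 (0.32, adjusted p = 0.442), which stood at 0.36 without cortex KO 1 and KO 4. The next smallest belonged to Eno3, which went the other way (-0.37, limma adjusted p = 0.553).

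Between WT regions these lists held calls in both directions, to be read against the shares over all rows: 35.8% between cerebellum and cortex (19.1% higher, 16.7% lower), 34.9% between cerebellum and hippocampus and 7.09% between hippocampus and cortex. Of the 9 oxygen sensing genes, 5 passed between cerebellum and cortex, 2 higher and 3 lower. Hif1a, the oxygen-regulated HIF subunit, was higher in cerebellum by 1.91 (SE 0.16, adjusted p = 2.47e-10), and its partner Arnt by 0.75 (adjusted p = 0.000375). The neuronal partner Arnt2 was lower by -2.52 (SE 0.23, adjusted p = 2.28e-09), and Epas1, the HIF2 alpha subunit, by -0.66 (adjusted p = 0.00448). Against hippocampus 5 passed as well, with Hif1a at 1.71 and Arnt2 at -2.09. These list calls use all arrays. Without the 4 cerebellum arrays high in choroid plexus markers, 1 WT cerebellum array was left. The median difference from cortex then went from -0.09 to 0.1 for the glycolytic enzymes and from 0.06 to -0.11 for oxygen sensing. For the hypoxia-induced genes it went from -0.04 to 0.09, and the medians of the other lists kept their sign.

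Of the 14 glycolytic enzymes 4 were called between cerebellum and cortex in WT mice, 2 in each direction: the phosphofructokinase subunits Pfkl (-1.0), Pfkp (-0.49) and Pfkm (0.23, adjusted p = 0.0489), and Aldoc, the aldolase of astrocytes and of Purkinje cells, at 0.72 (SE 0.15, adjusted p = 0.000349). The sign of Aldoc was opposite to that of Aldoa. Either without cortex KO 1 and KO 4 or without cerebellum KO 3, 3 of the 14 enzymes were called, 1 higher and 2 lower. These KO arrays enter the WT test only through the shared estimate of spread. The share of all rows called in those 2 settings is not given here. Of the 10 regulators 6 were called, 4 higher and 2 lower. The pyruvate dehydrogenase kinase Pdk2 was higher in cerebellum by 0.84 (SE 0.10, adjusted p = 1.98e-07), while Pdk1 was lower. The opposing phosphatases went both ways, Pdp1 at -2.15 (SE 0.24) and Pdp2 at 0.47, and the pyruvate dehydrogenase subunit Pdhb stood at 0.77.

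Of the 7 transporters 6 were called between WT cerebellum and cortex, 4 higher and 2 lower. The monocarboxylate transporters that move lactate and pyruvate were divided, with Slc16a7 at -0.88, Slc16a3 at -0.69 and Slc16a1 at 0.48, and the mitochondrial pyruvate carrier Mpc1 stood at 0.42. Of the 26 hypoxia-induced genes 11 were called, 7 higher and 4 lower. The 4 of largest size were the transcriptional coregulator Cited2 (1.43), the lipid droplet protein Plin2 (1.15), Car9 (0.84) and the transcriptional repressor Bhlhe40 (-0.82). Of the 8 VEGF ligands and receptors 3 were called, all lower in cerebellum, with the coreceptor Nrp2 at -0.91, Vegfd at -0.47 and Vegfc at -0.39. With all arrays 8 of the 8 had a lower mean in cerebellum (median -0.11). Without the 4 cerebellum arrays high in choroid plexus markers 5 were lower and 3 higher (median -0.12), with 1 WT cerebellum array left.

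Against hippocampus the WT cerebellum had 7 of 14 glycolytic enzymes called (3 higher, 4 lower), 5 of 10 regulators (3 and 2), 3 of 7 transporters (2 and 1), 10 of 26 hypoxia-induced genes (6 and 4) and 2 of 8 VEGF genes (0 and 2), where 34.9% of all rows were. Pfkl stood at -1.56, Car12, a carbonic anhydrase, at -2.88 and Nrp2 at -2.71. Between hippocampus and cortex in WT mice the calls were 1 glycolytic enzyme, 3 regulators, 0 transporters, 2 oxygen sensing genes, 2 hypoxia-induced genes and 1 VEGF gene. They included Car12 at 2.08, Nrp2 at 1.80, Pdp1 at -1.19 and Pfkl at 0.56. Vhl stood at 0.37 (adjusted p = 0.0471) and Egln1 at -0.36 (adjusted p = 0.0499). With single arrays left out the oxygen sensing calls numbered 0 to 2 and moved in 19 of 24 settings, the regulators 1 to 4 and the hypoxia-induced genes 1 to 4.

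The likeness of other genes to the 3 members with the widest WT regional range was measured as the root mean square difference in log2 value over the 24 arrays, after each gene was centred on its own mean. For Pdk1 the nearest were Map9 (0.18), Sub1 (0.19) and Rap2a (0.214). For Vegfa they were Zfyve9 (0.162), Kcna2 (0.202) and Pik3ca (0.204), and for Aldoa Zyg11b (0.099), Ywhaz (0.099) and Rpl4 (0.1).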

How the data were processed

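RNA of 3 brain regions was measured on microarrays. The deposited values are log2 signals made by the authors with RMA, per the submitters' processing notes (version, log base and any later scaling not given there; taken as log2), and the labels name both biotin and Cy3 as the label. Gene symbols came from the platform annotation: 19572 of 22206 rows have 1 symbol and 2634 have none. Probe sequences were not used, so hybridisation of related genes or pseudogenes was not assessed.

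The deposited values were used as they are. All 24 arrays were fitted with 1 mean for each of 6 groups in limma 3.58.1 (R 4.3.3, statmod 1.5.0), with 18 residual and 6.9 prior degrees of freedom. KO against WT within a region had no block. Averages over regions, tests between regions and the F test of regional difference in the KO effect had the animal as a random block, since the labels tie the regions of 1 animal by its number (consensus correlation 0.00646). WT and KO animals share only a number. Whether animals are littermates is not stated, so a litter effect could not be set apart. The p-values rest on 1 moderated estimate of spread per row, pooled over the 6 groups of arrays from these animals.

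The 10 genes, the lists and the tests were chosen with earlier results of these data known. Named list genes are the 4 of largest size among those called, or the 2 of smallest p. On simulated data for the same 19572 rows (5 simulations), a log2 change of 1 was recovered in 97% (cortex), 95.2% (hippocampus) and 96.4% (cerebellum) of changed genes, and one of 0.5 in 38.2%, 40.6% and 41.5%. Changes of 0.5, 1 and 2 were placed together on many genes per region, over independent normal noise. Many placed changes ease the adjusted threshold, whereas no row was called between KO and WT here. The recovered shares are therefore not the power of these KO tests. The alternatives were quantile normalization, a filter on rows below the 25th percentile of mean signal, robust empirical Bayes, other block settings, each array left out, the 3 arrays with markers of other regions left out and, chosen after seeing the data, the 4 cerebellum arrays with high choroid plexus markers left out. Array number limits the precision: exact tests of 4 against 4 arrays cannot go below p = 0.029. Sequences are RefSeq's on GRCm38.p6. All 10 genes matched by symbol.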

Additional observations from a re-analysis of the deposited data

Results flagged for a closer look

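Within each of the 6 groups, the highest and lowest array of every gene were set against the others by the gap to the nearest array as a share of the group's range, in 60 groups of 4 arrays of which chance alone gives about 5% such cases. In 3 groups an array lay far from the rest. Pfkfb3 read 9.82 on cortex KO 1 while the other cortex KO arrays read 10.34 to 10.41 (share of the range 0.876). Pdk1 read 11.19 on hippocampus KO 1 against 10.96 to 10.99 on the others (0.848). Pgk1 read 13.88 on cerebellum KO 3 against 13.20 to 13.31 (0.837). Cortex KO 1 and cerebellum KO 3 are among those with high markers of other brain regions.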

How the results depend on the processing

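With all arrays and under quantile normalization, the dim-row filter, robust empirical Bayes and every block setting, no member was called between KO and WT. Setting the replicate block or the pairing by animal otherwise (random for KO against WT, none, or fixed for regional pairs) changed 0 of 36, 0 of 96 and 0 of 72 results. Leaving out single arrays gave 0 to 1 called members in cortex (Egln3) and 0 to 55 called rows, 0 to 1 called rows in the average over regions, and 886 to 1789 rows between WT hippocampus and cortex.

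Signs turned for small differences. Without cortex KO 1 and KO 4, KO minus WT in cortex was 0.07 for Hk2 and 0.09 for Bnip3, and KO hippocampus minus cortex was 0.07 for Pgam1. Without cerebellum KO 3, the averaged KO effect on Vegfa was 0.00, KO cerebellum minus cortex was -0.05 for Pgam1 and 0.09 for Hk2, and KO cerebellum minus hippocampus -0.09 for Pfkfb3 and -0.05 for Pgam1. Without all 3 arrays, the cortex values of Hk2 and Bnip3 and the KO hippocampus value of Pgam1 were again 0.07, 0.09 and 0.07, those of Pfkfb3 and Pgam1 between KO cerebellum and hippocampus -0.09 and -0.05, 2097 rows were called between WT hippocampus and cortex (main 1387), 8 members between WT cerebellum and cortex (main 5) and 2 between KO hippocampus and cortex (main 1). Under quantile normalization KO minus WT in cerebellum was -0.05 for Ldha, hippocampus minus cortex was -0.01 for Pfkfb3 in WT and -0.04 for Aldoa in KO, cerebellum minus cortex in KO was -0.01 for Pgam1 and 0.02 for Hk2, and 2 members were called between KO hippocampus and cortex. The call of Pgam1 between WT cerebellum and hippocampus was lost there (-0.18, adjusted p = 0.169). The cause was not tested. Without the 4 cerebellum arrays high in choroid plexus markers, chosen after seeing the data, 1 WT cerebellum array was left. The calls were then 1 member and 4090 rows between WT cerebellum and cortex (main 7004 rows), and 3 members and 3758 rows between WT cerebellum and hippocampus (main 6833), with fewer arrays. KO minus WT in cerebellum was -0.18 for Pfkfb3, -0.03 for Pgam1, 0.02 for Hk2, 0.00 for Ldha, -0.04 for Pdk1, -0.06 for Pgk1 and -0.09 for Bnip3. Pfkfb3 stood at 0.04 (cerebellum minus cortex) and 0.02 (minus hippocampus) in WT, and Pgam1 at 0.08 (minus cortex). Pgk1 was called between WT cerebellum and cortex under quantile normalization, the dim-row filter and robust empirical Bayes.

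With single arrays left out, KO minus WT ranged in cortex from -0.14 to 0.05 for Bnip3, -0.15 to 0.08 for Hk2, -0.10 to 0.18 for Pdk1 and -0.14 to 0.09 for Vegfa, and in hippocampus from -0.06 to 0.03 for Bnip3, -0.14 to 0.04 for Ldha, -0.03 to 0.10 for Pdk1, -0.05 to 0.02 for Pgk1 and -0.25 to 0.02 for Vegfa. It ranged from -0.09 to 0.11 for Ldha in cerebellum and from -0.06 to 0.04 for Vegfa in the average. Between regions the ranges that crossed 0 were -0.06 to 0.09 for Pfkfb3 (WT hippocampus minus cortex), -0.28 to 0 for Pdk1 and -0.05 to 0.03 for Pgam1 (KO hippocampus minus cortex), -0.17 to 0.09 for Hk2, -0.34 to 0.17 for Pfkfb3 and -0.05 to 0.05 for Pgam1 (KO cerebellum minus cortex), and -0.09 to 0.42 for Pfkfb3 and -0.05 to 0.06 for Pgam1 (KO cerebellum minus hippocampus).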
